A study of Mus musculus with 12 samples.

Results

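Atp2a2, Atp2a3, Atp2b1, Atp2b4, Stim1, Stim2, Orai1, Itpr1, Itpr2 and Itpr3 encode pumps, channels and sensors that move calcium or report on its stores, and their RNA was described in 12 libraries of cultured mouse regulatory T cells (Tregs). They are 10 of the 55228 gene symbols measured. All 10 were found by symbol, and all 10 had a mean of at least 1 TPM, a level per transcript length that sums to the same total in each library, over the 12 libraries. The set was chosen by a measured value, the lower Atp2a2 level of 3A10t, so values of these genes in 3A10t are given without a test, as are all values of Atp2a2 against the EV group.

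The 4 groups had 3 libraries each. All cells were Foxp3-GFP+CD25+ Tregs of NOD.Foxp3-GFP mice, and CD4+ T cells of 16 mice were pooled, split into 3 parts and then sorted and activated part by part. The labels give lymph node as the tissue and no age for these mice, and the study's general methods for Treg isolation name spleen beside lymph node. The replicate number was taken to mark this part. The replicates share their mice, and p-values measure only the spread between parts of a single pool. On day 2 each part was transduced with a retroviral vector carrying the surface reporter Thy1.1, and the Thy1.1+ cells were taken by a sort at day 9. EV Tregs carried the empty vector, and 1G12t and 3A10t Tregs carried the orthoIL-2 variant 1G12 or 3A10 tethered to the orthogonal IL-2 receptor β chain. All cultures had IL-2 until day 4. EV, 1G12t and 3A10t Tregs were then washed and kept for 5 days without added IL-2 (the EV group without it is written EV). A part of the EV culture was left in IL-2 (written EV+IL-2), which the paper gives as recombinant mouse IL-2.

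In T cells, antigen receptor signaling activates phospholipase C, which makes inositol trisphosphate (IP3). IP3 opens IP3 receptors (Itpr1, Itpr2, Itpr3) in the endoplasmic reticulum (ER), and calcium leaves the store. STIM proteins in the ER membrane (Stim1, Stim2) sense the loss and open ORAI channels (Orai1) in the plasma membrane, which is called store-operated entry. SERCA pumps (Atp2a2, Atp2a3) return calcium from the cytosol to the ER, and PMCA pumps (Atp2b1, Atp2b4) export it from the cell. The calcium signal acts through calcineurin and NFAT transcription factors.

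Treg genes were well expressed in all 12 libraries. Foxp3 ranged from 315 to 538 TPM and Il2ra, which encodes CD25, from 308 to 716 TPM. Of the markers of other cells, Ms4a1 (B cells) stayed at or below 0.7 TPM, Lyz2 (myeloid cells) at or below 0.41 TPM and Cd8a (CD8 T cells) at or below 0.66 TPM. Cst3, listed as a myeloid marker, was at 480 to 651 TPM in all 12. Cd79b (B cells) was at 7.07 to 11.9 TPM and Cd8b1 (CD8 T cells) at 3.39 to 5.31 TPM. The summed TPM was 8.48 to 14.1 for 3 B cell markers, 482 to 653 for 5 myeloid markers and 3.71 to 5.72 for 2 CD8 T cell markers. In 3A10t these sums were 10.9 to 13.7, 541 to 653 and 4.27 to 5.56, overlapping with those of 1G12t. In EV they were 8.48 to 10.5, 545 to 556 and 3.71 to 5.35. The B cell sum of EV thus lay below that of 3A10t, and the other sums overlapped. The part of this difference in the results was not tested. The summed TPM of the 6 Treg markers was 1360 to 1930 in 3A10t and 1870 to 2260 over the other 3 groups, and the part of this in the results was not tested. The median SD between libraries of a group, on the log2 scale, was 0.224 in 3A10t and 0.109 to 0.154 in the other groups. The 10 most abundant genes held 10.8% to 13.5% of TPM in 3A10t and 8.85% to 9.92% over the other groups. Genes above 0 TPM numbered 30393 to 36239 in EV+IL-2 and 37930 to 43285 over the other groups. The part of both in the results was not tested. TPM keep no depth, so the sequencing depth is unknown. In bulk libraries, fewer cells of a type and less RNA per cell cannot be told apart.

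Against EV, the 3A10t libraries had less RNA of both SERCA pumps and both STIM sensors. Atp2b4, a plasma membrane pump of low level, rose in EV+IL-2, and Itpr1 was lower in EV+IL-2 than in 1G12t. Of the 9 genes tested in EV+IL-2 against EV, 1 was higher and 0 were lower at a Benjamini-Hochberg adjusted p under 0.05, beside 8.17% of 15043 genes called higher and 5.13% called lower. In 1G12t against EV, limma called 0 of 9, beside 0.0199% of all genes, and 3 of the 9 had an unadjusted p under 0.05, beside 7.04% of all genes (1059 of 15043). In EV+IL-2 against 1G12t, 1 of 10 was lower and 0 were higher, beside 9.69% and 10.9% of all genes. In 3A10t against EV, 0.452% of all genes were called higher and 1.60% lower. With TPM as deposited, without scaling, the median of all genes moved from 0.03 to −0.09, and 53 genes were called higher and 446 lower in place of 68 and 240. Without a filter on low TPM, 146 were higher and 70 lower, so the balance of directions turned. The median of all genes in EV+IL-2 against 1G12t moved from −0.02 to −0.11, and 1270 were called higher and 2011 lower in place of 1641 and 1458. Without a filter these were 1873 and 12969, and at a mean of at least 5 TPM 1267 and 659. In 3A10t against EV, 4 of the 10 were lower with no overlap between the libraries of the groups, beside 12.1% of all genes. Atp2a2, whose lower level in 3A10t chose the set, is 1 of these 4. The median log2 difference of the 10 genes, Atp2a2 among them, was −0.23, and that of all genes tested was 0.03. All but Orai1 fall in the 3 groups of longest transcripts among the length groups described below, where medians were −0.26, −0.26 and −0.12.

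**Figure D1:**
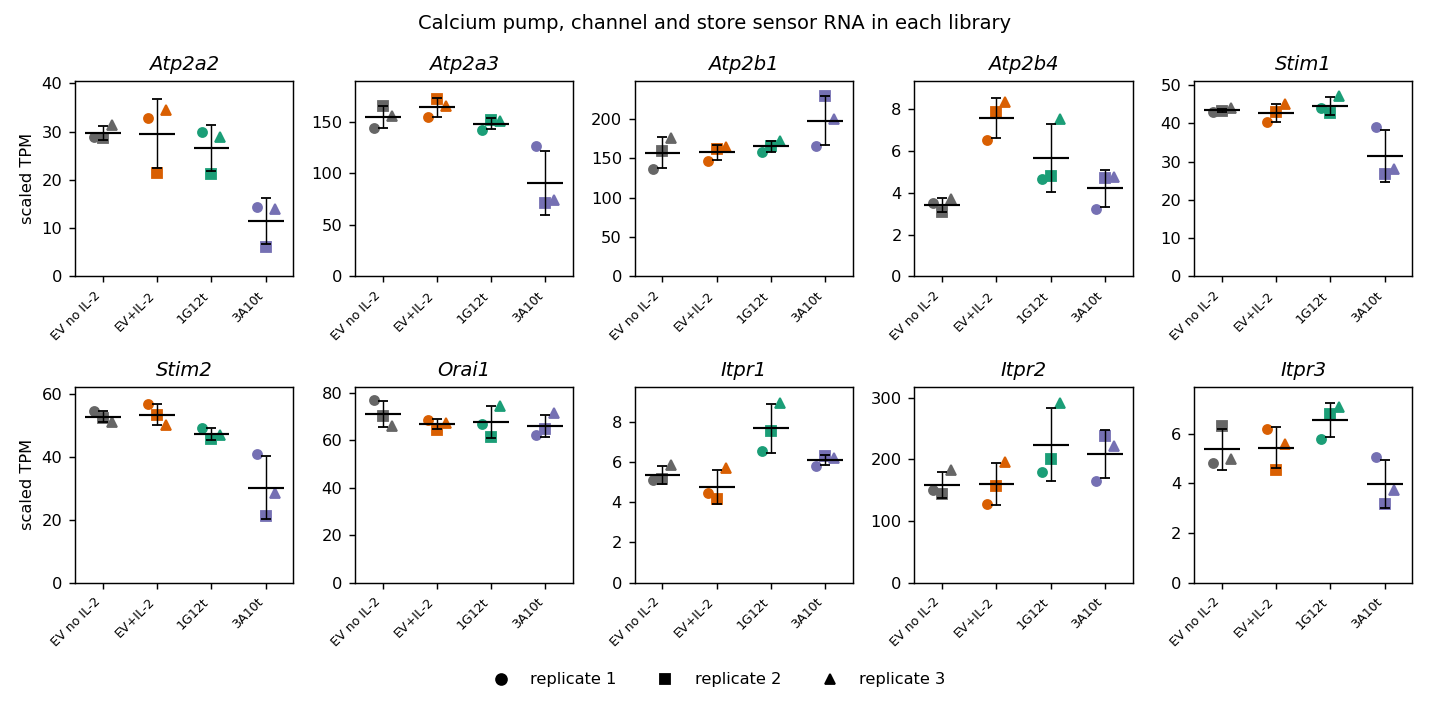
RNA level of the 10 genes in each of the 12 libraries, in scaled TPM (TPM divided by a library size factor), with a linear axis from 0 in each panel. Symbols mark the replicate numbers, long bars the group means and error bars the SD of 3 libraries. Atp2a2 lies between 6.08 and 14.5 in 3A10t and between 21.3 and 34.5 in the other 9 libraries.

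The SERCA pumps were described first, since Atp2a2 defined the set. Atp2a2 encodes SERCA2, the pump that refills the ER in most cell types, and lies at chr5:122453513-122502225 on the minus strand (GRCm38). Its level was 28.8, 28.8 and 31.3 scaled TPM in EV, 32.9, 21.4 and 34.5 for EV+IL-2, 29.9, 21.3 and 28.9 for 1G12t, and 14.5, 6.08 and 13.9 for 3A10t, in replicates 1, 2 and 3. All 3 libraries of 3A10t were below the other 9, and replicate 2 was the lowest in EV+IL-2, 1G12t and 3A10t. The means were 29.7 ± 1.46, 29.6 ± 7.11, 26.7 ± 4.74 and 11.5 ± 4.69 (SD, n = 3). The ranges of the first 3 groups overlapped, and EV+IL-2 and 1G12t differed by 0.13 on the log2 scale (95% interval −0.49 to 0.75, adjusted p = 0.797). The 3A10t mean was 0.387 of the EV mean. The difference in log2(scaled TPM + 1), called the log2 difference here, was −1.38 (SE 0.282), and without 3A10t replicate 2 it was −1.02.

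Atp2a3 encodes SERCA3, the SERCA pump typical of blood cells, and was the more abundant of the pair in these Tregs. Its level was 144, 165 and 156 scaled TPM in EV, 155, 173 and 166 for EV+IL-2, and 143, 152 and 151 for 1G12t. In 3A10t it was 127, 71.5 and 74.5 scaled TPM. Replicate 1 of 3A10t was nearest to the other groups but still below all 9 of their libraries. The 3A10t mean was 0.586 of the EV mean, and the log2 difference was −0.81 (SE 0.177), or −1.07 without 3A10t replicate 1. In EV+IL-2 the log2 difference from EV was 0.08 (95% interval −0.31 to 0.48, adjusted p = 0.846), and in 1G12t it was −0.06 (−0.45 to 0.33, adjusted p = 0.948).

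The summed TPM of the SERCA pair was 185 ± 10.8 in EV, 194 ± 6.5 for EV+IL-2, 175 ± 4.11 for 1G12t and 102 ± 34.2 for 3A10t (SD, n = 3). Atp2a3 made up most of it in every library. The share of Atp2a2 was 16.1% ± 1.09 in EV, 15.3% ± 3.65 for EV+IL-2, 15.2% ± 2.65 for 1G12t and 11.3% ± 4.06 for 3A10t. In 3A10t the 3 shares were 10.2%, 7.84% and 15.8%, and the third lay within the range of the other groups. Both genes were lower in 3A10t, and the share of Atp2a2 was below the other groups in 2 of 3 libraries.

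**Figure D2:**
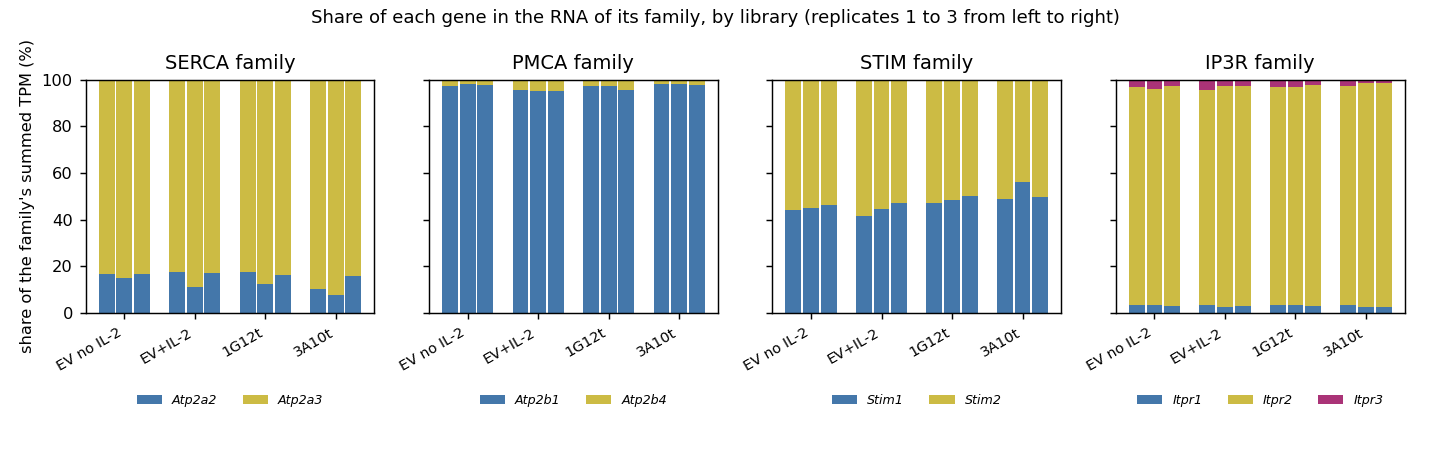
Share of each gene in the summed TPM of its family (percent, linear axis from 0 to 100) in each of the 12 libraries, with replicates 1 to 3 of a group from left to right. Atp2a3 holds 82.5% to 92.2% of SERCA RNA, Atp2b1 95.2% to 98.1% of PMCA RNA and Itpr2 92.3% to 96.2% of IP3 receptor RNA, whereas Stim1 holds 41.4% to 55.9% of STIM RNA.

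Of the plasma membrane pumps, Atp2b4 was the only one of the tested genes called in EV+IL-2 against EV. It encodes PMCA4, and its level was low. It was 3.5, 3.07 and 3.69 scaled TPM in EV, 6.52, 7.88 and 8.37 for EV+IL-2, 4.65, 4.82 and 7.55 for 1G12t, and 3.2, 4.71 and 4.77 for 3A10t. All 3 libraries of EV+IL-2 were above those of EV and of 3A10t, and 1G12t replicate 3 was within the range of EV+IL-2. The mean scaled TPM of Atp2b4 rose 2.22-fold with IL-2. The difference in log2(scaled TPM + 1), which is smaller for low genes, was 0.95 (SE 0.181, adjusted p = 0.00531). Adjusted p-values over the 23 alternative settings ran from 0.00149 to 0.026. In 1G12t the log2 difference from EV was 0.57 (SE 0.181, adjusted p = 0.684), with no overlap between the groups, as for 8.68% of all genes in that direction. In 3A10t it was 0.23 (SE 0.181), and the ranges overlapped. EV+IL-2 and 1G12t differed by 0.38 (95% interval −0.01 to 0.78, adjusted p = 0.165). Without 1G12t replicate 3 this difference was 0.57, with an adjusted p of 0.0368, and with the trend on length removed it was 0.61, with an adjusted p of 0.0149.

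Atp2b1 encodes PMCA1, the housekeeping form of the plasma membrane pump, and it was among the more abundant of the 10 genes. Its means were 157 ± 19.7 scaled TPM in EV, 158 ± 9.06 for EV+IL-2, 165 ± 6.91 for 1G12t and 198 ± 31.6 for 3A10t (SD, n = 3). The 3A10t libraries were at 166, 229 and 200 scaled TPM, and the first of these lay within the range of EV. The log2 difference of 3A10t from EV was 0.33 (SE 0.123), opposite in sign to that of the SERCA pumps. Neither EV+IL-2 (0.01, 95% interval −0.26 to 0.28) nor 1G12t (0.08, −0.19 to 0.35) passed the test against EV. Atp2b1 made up 97.9% of the PMCA sum in EV, 95.4% for EV+IL-2, 96.7% for 1G12t and 97.9% for 3A10t. The share of Atp2b4 in the PMCA sum was 2.15% ± 0.31 in EV and 4.58% ± 0.313 in EV+IL-2, and the PMCA sum was 161 ± 19.7 and 165 ± 10 scaled TPM.

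**Figure D3:**
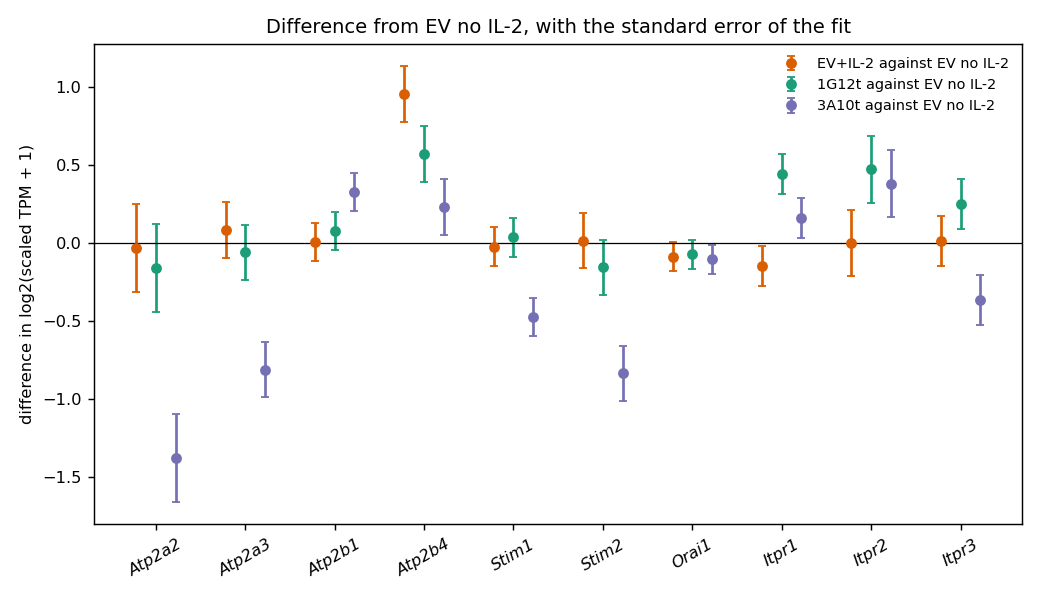
Difference in log2(scaled TPM + 1) of EV+IL-2, 1G12t and 3A10t from EV for the 10 genes. Points are the differences and bars the standard errors of the limma fit. In 3A10t, Atp2a2 (−1.38), Stim2 (−0.84), Atp2a3 (−0.81) and Stim1 (−0.48) lie below 0, and in EV+IL-2 Atp2b4 (0.95) stands above the rest.

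Both store sensors were lower in 3A10t, whereas levels of Orai1, the channel they open, overlapped between 3A10t and EV. Set against genes of like transcript length, described below, this contrast was not the same. In 3A10t against EV, 26.3% of its length group lay below Stim1, 3.92% below Stim2 and 11.2% below Orai1. Stim1 encodes the main sensor of ER calcium. It was at 43, 43.3 and 43.9 scaled TPM in EV, 40.3, 43 and 45 for EV+IL-2, 44, 42.7 and 47.1 for 1G12t, and 39.2, 26.8 and 28.2 for 3A10t. The 3A10t libraries were below the other 9, replicate 1 by a small margin. The log2 difference of 3A10t from EV was −0.48 (SE 0.123). It was −0.64 without 3A10t replicate 1 and −0.28 with the trend on length removed.

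Stim2, which encodes the sensor that responds to small losses of ER calcium, had a larger difference. Its level was 54.8, 52.5 and 51.3 scaled TPM in EV, 56.9, 53.5 and 50.1 for EV+IL-2, 49.4, 45.7 and 47.1 for 1G12t, and 40.9, 21.1 and 28.6 for 3A10t. The 3A10t libraries were again below the other 9, and the 1G12t libraries were all below EV, as were those of 7.80% of all genes. The 3A10t mean was 0.571 of the EV mean, and the log2 difference was −0.84 (SE 0.177). In 1G12t the difference was −0.15 (95% interval −0.55 to 0.24, adjusted p = 0.837). The summed STIM level was 96.3 ± 1.41 scaled TPM in EV, 96.2 ± 1.08 for EV+IL-2, 91.9 ± 3.12 for 1G12t and 61.6 ± 16.6 for 3A10t. Stim1 made up 45.1% ± 1.09, 44.4% ± 2.95, 48.5% ± 1.47 and 51.5% ± 3.86 of it in the same order.

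Orai1 encodes the pore of the store-operated channel. Its means were 71.1 ± 5.42 scaled TPM in EV, 66.8 ± 2.14 for EV+IL-2, 67.7 ± 6.59 for 1G12t and 66.1 ± 4.66 for 3A10t (SD, n = 3). The ranges of all 4 groups overlapped. The log2 difference from EV was −0.09 in EV+IL-2 (95% interval −0.29 to 0.12, adjusted p = 0.636), −0.07 for 1G12t (−0.28 to 0.13, adjusted p = 0.848) and −0.10 in 3A10t (SE 0.0923). With TPM as deposited the 3A10t difference was −0.25.

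The promoter sequences of genes whose levels stood apart are given as a description. RefSeq promoters on GRCm38.p6 were matched by symbol for 8 of the 10 genes, with 9 windows, and Atp2a2 and Itpr1 had no entry. The 250 bases before the RefSeq start are shown for Atp2a3, Stim1 and Stim2, which were lower in 3A10t. They are also shown for Atp2b4, which rose with IL-2, but there the start is an internal one, inside the gene. Letters are lower case, 5′ to 3′ on the strand of the gene, with capitals marking each match, on either strand, to the GC box GGGCGG. Matches may overlap. A STAT motif (TTCNNNGAA), the NFAT core GGAAA and the TATA box TATAAA were searched in the same way and are in none of these 4. The Atp2b4 window is chr1:133753748-133753997, the Atp2a3 window chr11:72960919-72961168, the Stim1 window chr7:102267569-102267818 and the Stim2 window chr5:53998273-53998522. By GENCODE M21 the Atp2b4 window lies inside the gene, before an internal start, with 2 of its bases in an exon. The Stim1 and Stim2 windows have their last 13 and 24 bases in the first exon of the gene, and the Atp2a3 window ends where the gene begins.
Atp2b4: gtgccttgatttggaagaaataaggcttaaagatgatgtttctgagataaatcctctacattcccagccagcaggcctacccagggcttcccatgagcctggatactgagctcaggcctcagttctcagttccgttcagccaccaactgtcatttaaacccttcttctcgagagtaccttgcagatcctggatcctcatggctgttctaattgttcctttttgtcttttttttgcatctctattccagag
Atp2a3: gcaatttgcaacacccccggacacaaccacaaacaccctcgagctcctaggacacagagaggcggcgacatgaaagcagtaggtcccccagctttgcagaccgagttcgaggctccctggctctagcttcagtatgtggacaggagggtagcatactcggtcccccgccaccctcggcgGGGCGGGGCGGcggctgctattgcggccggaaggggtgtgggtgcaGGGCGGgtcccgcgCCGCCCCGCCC
Stim1: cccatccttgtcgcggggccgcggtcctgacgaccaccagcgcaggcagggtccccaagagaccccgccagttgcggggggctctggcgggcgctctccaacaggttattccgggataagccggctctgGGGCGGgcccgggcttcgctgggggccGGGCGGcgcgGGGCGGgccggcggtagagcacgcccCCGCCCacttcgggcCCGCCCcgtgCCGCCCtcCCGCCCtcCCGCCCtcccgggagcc
Stim2: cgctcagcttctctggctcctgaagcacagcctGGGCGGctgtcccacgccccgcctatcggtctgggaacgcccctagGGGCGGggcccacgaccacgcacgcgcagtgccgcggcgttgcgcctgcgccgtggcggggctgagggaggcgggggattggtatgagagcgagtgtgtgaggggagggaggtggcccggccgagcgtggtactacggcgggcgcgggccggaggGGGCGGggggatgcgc

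Atp2a3 has 5 GC boxes, Stim1 has 8 and Stim2 has 3. The Atp2b4 window, inside the gene, has 0 and does not show the sequence before the first base of the gene. Of the windows not shown, those of Itpr2 (4), Atp2b1 (4 and 3), Orai1 (3) and Itpr3 (1) also hold GC boxes. Their GC content is 70.8% to 80.8%, so GC-rich windows are not particular to the genes lower in 3A10t. Of 32851 windows of this length in the table, 32.7% hold a GC box, 55.6% an NFAT core, 12.4% a TATA box and 7.02% a STAT motif. The GC content is 66.8%, 78.4% and 74.8% for Atp2a3, Stim1 and Stim2, with 20, 31 and 30 CpG dinucleotides. The Atp2b4 window inside the gene has a GC content of 45.6% and 2 CpG dinucleotides, whereas the median over all windows is 52.4% and 6. Of the 9 windows, that of Orai1 holds a STAT motif, which starts at position −207 from the start site.

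Itpr1 was the IP3 receptor called between EV+IL-2 and 1G12t. It lies at chr6:108213096-108551109 on the plus strand (GRCm38). Its level was 5.08, 5.14 and 5.85 scaled TPM in EV, 4.44, 4.14 and 5.71 for EV+IL-2, 6.53, 7.55 and 8.92 for 1G12t, and 5.8, 6.29 and 6.19 for 3A10t. The 1G12t libraries were above the other 9. The EV+IL-2 mean was 0.621 of the 1G12t mean, and the difference in log2(scaled TPM + 1) was −0.59 (SE 0.129, adjusted p = 0.00904). Adjusted p-values over the 23 alternatives ran from 0.00464 to 0.0427, and with the trend on transcript length removed the difference was −0.40 (adjusted p = 0.0104). In 1G12t against EV the log2 difference was 0.44 (95% interval 0.16 to 0.72, adjusted p = 0.684), and in EV+IL-2 it was −0.15 (−0.43 to 0.14, adjusted p = 0.547). In 3A10t it was 0.16 (SE 0.129).

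Itpr2 held most of the IP3 receptor RNA, with shares of the family sum of 93.6% in EV, 93.9% for EV+IL-2, 93.9% for 1G12t and 95.2% for 3A10t. Its level was 150, 143 and 182 scaled TPM in EV, 127, 157 and 195 for EV+IL-2, 179, 201 and 291 for 1G12t, and 164, 238 and 222 for 3A10t. Replicate 3 was the highest in EV, EV+IL-2 and 1G12t, and the groups overlapped. The log2 difference of EV+IL-2 from 1G12t was −0.47 (SE 0.213, adjusted p = 0.147). The replicate block, which compares libraries of the same replicate number, called it, with an adjusted p of 0.0295. Against EV, the difference was 0.00 in EV+IL-2 (95% interval −0.47 to 0.47), 0.47 in 1G12t (0.00 to 0.94, adjusted p = 0.706) and 0.38 in 3A10t (SE 0.213).

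Itpr3 had means of 5.37 ± 0.819 scaled TPM in EV, 5.44 ± 0.818 for EV+IL-2, 6.56 ± 0.667 for 1G12t and 3.98 ± 0.97 for 3A10t (SD, n = 3). The 3A10t libraries were at 5.06, 3.17 and 3.72 scaled TPM, and the first of these lay within the range of EV. The log2 difference of 3A10t from EV was −0.36 (SE 0.159). Neither EV+IL-2 (0.01, 95% interval −0.34 to 0.37) nor 1G12t (0.25, −0.10 to 0.60) passed the test. Of the 3 receptors, Itpr3 was lower in 3A10t by its mean, and Itpr1 and Itpr2 were higher by theirs.

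The same SERCA and STIM genes stood apart when 3A10t was set against the other groups, all of which share the 3A10t libraries. Against 1G12t, 6 of 10 were lower with no overlap (Atp2a2, Atp2a3, Stim1, Stim2, Itpr1 and Itpr3) and 0 were higher, beside 12.5% of all genes lower in this way. Atp2a2, whose lower level in 3A10t chose the set, is counted among these 6. The log2 differences were −1.22 for Atp2a2, −0.75 for Atp2a3, −0.51 for Stim1, −0.68 for Stim2, −0.28 for Itpr1 and −0.61 for Itpr3. With the trend on length removed these were −0.07 for Itpr1, −0.40 for Itpr3 and −0.31 for Stim1. With TPM as deposited the difference was −0.45 for Itpr1 and −0.22 for Orai1, and with a pseudocount of 5 it was −0.37 for Itpr3. All but Orai1 fall in the groups of longest transcripts described below, where medians against 1G12t were −0.235, −0.266 and −0.242. Against EV+IL-2, 5 of 10 were lower with no overlap, Atp2b4 (−0.73) with the SERCA and STIM genes, beside 18.0% of all genes. Atp2a2 is counted here too, and the medians of the same length groups were −0.225, −0.24 and −0.133. Atp2b1 (0.32) and Itpr1 (0.31) were higher with no overlap, as were 18.9% of all genes. Atp2a2 differed by −1.35 and Orai1 by −0.02 in this comparison.

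Transcript length moved with the differences of 3A10t. Over 8787 protein-coding genes with a mean of at least 5 TPM, the rank correlation between the longest coding transcript and the log2 difference of 3A10t from EV was −0.465 across genes, which are not independent replicates. In 8 groups of genes of rising length the median difference was 0.23, 0.15, 0.03, −0.10, −0.20, −0.26, −0.26 and −0.12. Atp2a2, with 4486 bases, Atp2a3, with 4606, and Stim2, with 4934, fall in the seventh group, and Stim1, with 4362, in the sixth. With the trend on length removed, the difference was −1.19 for Atp2a2, −0.65 for Stim2, −0.62 for Atp2a3 and −0.28 for Stim1. The difference of Stim1 was within the quartiles of its length group (−0.48 to −0.02), with 26.3% of that group below it. Orai1, with 1875 bases, falls in the second group. Its difference of −0.10 was below the quartiles of that group (0.02 to 0.25), with 11.2% of the group below it.

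The relation to length had the opposite sign in 1G12t. The rank correlation with length was 0.193 in 1G12t against EV and −0.116 in EV+IL-2 against EV. In the group of longest genes the median difference of 1G12t was 0.09, and Atp2b4 (11725 bases), Itpr2 (11679 bases) and Itpr1 (9870 bases) lay above 99.5%, 97.2% and 95.3% of that group.

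**Figure D4:**
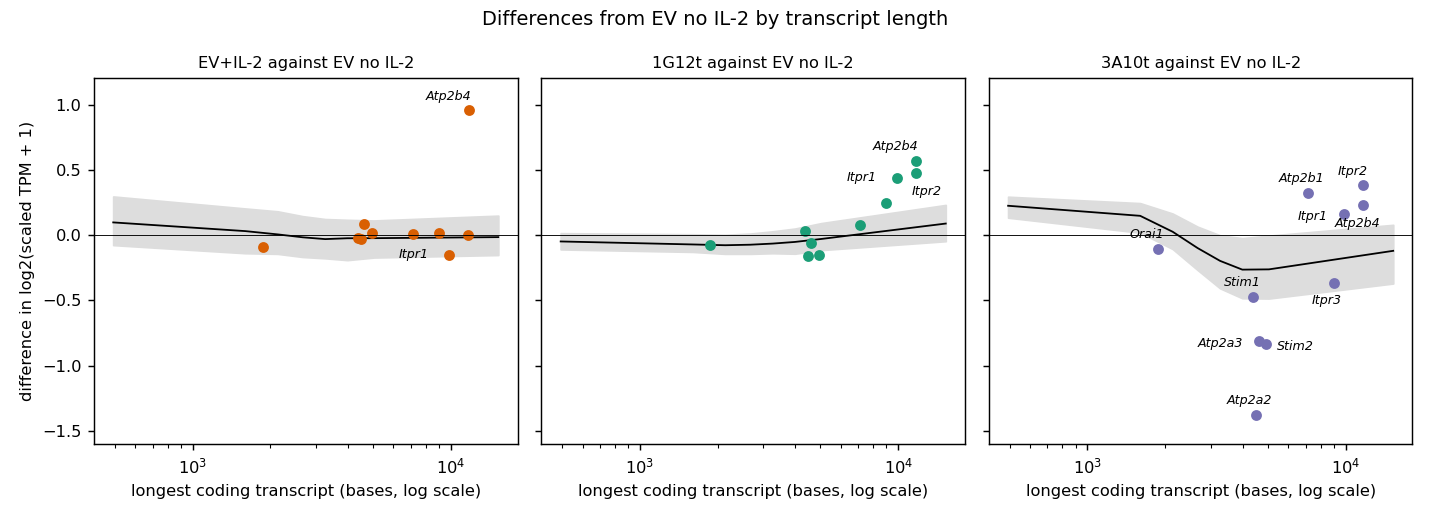
Difference in log2(scaled TPM + 1) from EV against the longest coding transcript in bases (log axis), for EV+IL-2, 1G12t and 3A10t. Points are the 10 genes, the black line joins the medians of 8 length groups of protein-coding genes and the grey band spans their quartiles. In 3A10t the medians run from 0.23 in the shortest group to −0.26 in the sixth and seventh, and Atp2a2 lies at −1.38.

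The calcium genes around these 10 were given by 7 lists with 100 genes, of which 83 had a mean of at least 1 TPM. With IL-2, 14 of the 83 rose and 2 fell against EV, beside 8.17% and 5.13% of all genes, and their median log2 difference was 0.04 beside −0.01 for all genes. By list, 3 of 11 ER calcium-binding proteins rose, 4 of 21 genes of calmodulin, calcineurin, NFAT and CaM kinases rose, 2 of 9 partners of store-operated entry rose and 1 fell, 2 of 11 genes of mitochondrial uptake rose and 1 fell, 2 of 20 other channels rose, 1 of 9 genes of IP3 production and removal rose, and 0 of 2 other pumps and exchangers were called. With 1 library left out, the count of 16 was 10 without EV replicate 2 or 3, 7 when EV+IL-2 lacked replicate 1 and 9 when it lacked replicate 2. The share of all genes called was 9.43%, 8.25%, 8.08% and 8.33% in these fits, in place of 13.3%.

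Rcn1, a calcium-binding protein of the ER lumen, had the largest log2 difference of the list genes named in EV+IL-2 against EV. It was at 58.1, 62.3 and 55.9 scaled TPM in EV and at 130, 127 and 125 in EV+IL-2, a log2 difference of 1.10 (SE 0.123, adjusted p = 0.000167). In 1G12t it was at 60.3, 52.4 and 65.6, and in 3A10t at 67.6, 53.6 and 75.6, so the EV+IL-2 libraries were above the other 9. Asph, a gene that also encodes the ER protein junctate, rose from 5.37 ± 0.779 to 10.2 ± 0.604 scaled TPM (log2 difference 0.82, adjusted p = 0.0007). Rcan3, a regulator of calcineurin, rose from 44 ± 5.73 to 68.9 ± 1.01 scaled TPM (0.65, adjusted p = 0.00351). Tespa1, which encodes a partner of IP3 receptors in T cells, was 0.75 higher (adjusted p = 0.041), and leaving out any of the 6 libraries compared, 1G12t replicate 2 or 3A10t replicate 3 ended this call (adjusted p from 0.0517 to 0.137). The call of Tespa1 was also lost without a filter (adjusted p = 0.0998), with TPM as deposited (0.0506), with quantile normalization (0.0517) and without a trend (0.0513), so it was lost in 12 of 23 alternatives.

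Orai2, a channel subunit related to Orai1, fell with IL-2. It was at 78.5, 79.2 and 79 scaled TPM in EV and at 54.5, 52.8 and 51.8 in EV+IL-2, a log2 difference of −0.56 (SE 0.095, adjusted p = 0.00263). In 3A10t it was at 67.4, 65 and 52.1 scaled TPM, below all libraries of EV, and it was not among the genes called there. Orai1 did not pass the test in EV+IL-2 against EV. Micu3, a regulator of the mitochondrial calcium uniporter, had a log2 difference of −0.39 in EV+IL-2 (adjusted p = 0.0349). Leaving out any of the 6 libraries compared ended the call of Micu3, with adjusted p from 0.0575 to 0.13, as did having no filter (0.0919) and the length correction (0.0531).

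In 1G12t against EV, limma called 0 of the 83, and 8 had an unadjusted p under 0.05, beside 0.0199% and 7.04% of all genes. Of the 83, 13 were higher and 12 lower in EV+IL-2 than in 1G12t, beside 10.9% and 9.69% of all genes. Rcn1 (1.09), Rcan3 (0.81), Asph (0.81) and Calm3 (0.67), which encodes calmodulin, were higher in EV+IL-2, with adjusted p of 0.000176, 0.000782, 0.000721 and 0.00633. Orai2 was lower (−0.49, adjusted p = 0.00503). Itpkb, a kinase that turns over IP3, was lower by its fit (−0.92, adjusted p = 0.0375), with 16.5, 19 and 38.7 scaled TPM in 1G12t and 9.23, 10.6 and 16.2 in EV+IL-2. Its call was lost without EV+IL-2 replicate 1 or 2 (adjusted p 0.141 and 0.117), any library of EV (0.0506 to 0.0546), 3A10t replicate 3 (0.0512) or 1G12t replicate 3, the highest, when the difference was −0.56 (0.0827). Trpm4, a calcium-activated cation channel (−0.51, adjusted p = 0.0222), and Nfatc3, an NFAT factor (−0.45, adjusted p = 0.036), lost their calls without EV+IL-2 replicate 1, EV+IL-2 replicate 2 or 1G12t replicate 3, and Nfatc3 also without EV replicate 1 or 2. Adjusted p was then 0.0636 to 0.0871 for Trpm4 and 0.0506 to 0.14 for Nfatc3. With the 6 libraries compared alone, adjusted p was 0.109 for Itpkb and 0.0848 for Nfatc3. The count of 25 was 14 without EV+IL-2 replicate 1 or 2, beside 13.2% of all genes in each, in place of 20.6%.

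In 3A10t against EV, 1 of the 83 was called lower, and 25 had an unadjusted p under 0.05, beside 1.60% and 26.0% of all genes (3911 of 15043 for the latter). The gene was Plcg1, the phospholipase C that makes IP3 after T cell receptor signaling. It was at 72.4, 77.9 and 83.6 scaled TPM in EV, 67.2, 53.4 and 62.4 for EV+IL-2, 69.7, 71 and 72.1 for 1G12t, and 55.7, 27.2 and 37.4 for 3A10t. The log2 difference of 3A10t was −0.998 (SE 0.199, adjusted p = 0.038). Plcg1 kept its call when 3A10t replicate 1 was left out, when the difference was −1.26 and 24 of the genes on the lists were called, beside 23.2% of all genes (3469), and lost it when any other library was left out (adjusted p from 0.0514 to 0.15). With the replicate block, 2 of the lists' genes were called, beside 2.67% of all genes. With the trend on length removed, Plcg1 differed by −0.82 (adjusted p = 0.0528), and its call was also lost without a filter (0.0596), with the 6 libraries alone (0.233) and without a trend (0.0506).

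In 3A10t against 1G12t, 3 of 83 were lower and 1 was higher, beside 2.96% and 1.30% of all genes. Plcg1 (−0.87), Trpm4 (−0.62) and Cabin1, an inhibitor of calcineurin (−0.37), were lower, and the mitochondrial channel gene Vdac3 (0.41) was higher, with adjusted p of 0.0434, 0.0399, 0.0349 and 0.0429. Each of these calls was lost when any 1 library was left out, except 3A10t replicate 1 for all 4 and EV replicate 1 for Trpm4 and Cabin1 (adjusted p after a loss from 0.0558 to 0.123). Without 3A10t replicate 1, 28 of the 83 were called in place of 4, beside 27.6% of all genes (4139). Without EV replicate 1 the count was 2, beside 1.77% of all genes, and without any other library it was 0, beside 0.316% to 1.11%. The replicate block gave 8, beside 6.56% of all genes. With the trend on length removed, 0 were called, and Cabin1 differed by −0.15 and Vdac3 by 0.26, which was 0.22 with TPM as deposited (adjusted p = 0.0512). With TPM as deposited, 96 of all genes were called higher and 1300 lower in this comparison, in place of 196 and 446.

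In 3A10t against EV+IL-2, 22 of 83 were lower and 7 higher, beside 13.0% and 10.3% of all genes. Without a filter, 13646 of all genes were called higher and 2242 lower in this comparison, in place of 1551 and 1962. Rcn1 (−0.96), the potassium channel gene Kcna3 (−0.92), Esyt1, which encodes a tether between ER and plasma membrane (−0.87), and Ahcyl1, which encodes an inhibitor of IP3 receptors (−0.85), were lower, with adjusted p of 0.000457, 0.0236, 0.0132 and 0.0209. Kcnn4, a calcium-activated potassium channel gene (0.48, adjusted p = 0.00765), and Micu3 (0.40, adjusted p = 0.0218) were higher in 3A10t. The call of Rcn1 held in all 23 alternatives. Leaving out 1 library ended the calls of Micu3 (EV+IL-2 replicate 1 or 2 or 3A10t replicate 3), Kcna3 (EV+IL-2 or 3A10t replicate 2 or 3) and Ahcyl1 (EV+IL-2 replicate 1 or 3), with adjusted p from 0.0597 to 0.0882, and TPM as deposited also ended that of Micu3 (0.0827). The count of 29 was 15, 16 and 19 without EV+IL-2 replicate 1, 2 and 3, and 17 without 3A10t replicate 3. The share of all genes called was 12.9%, 15.8%, 16.4% and 16.6% in the same order, in place of 23.4%.

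**Figure D5:**
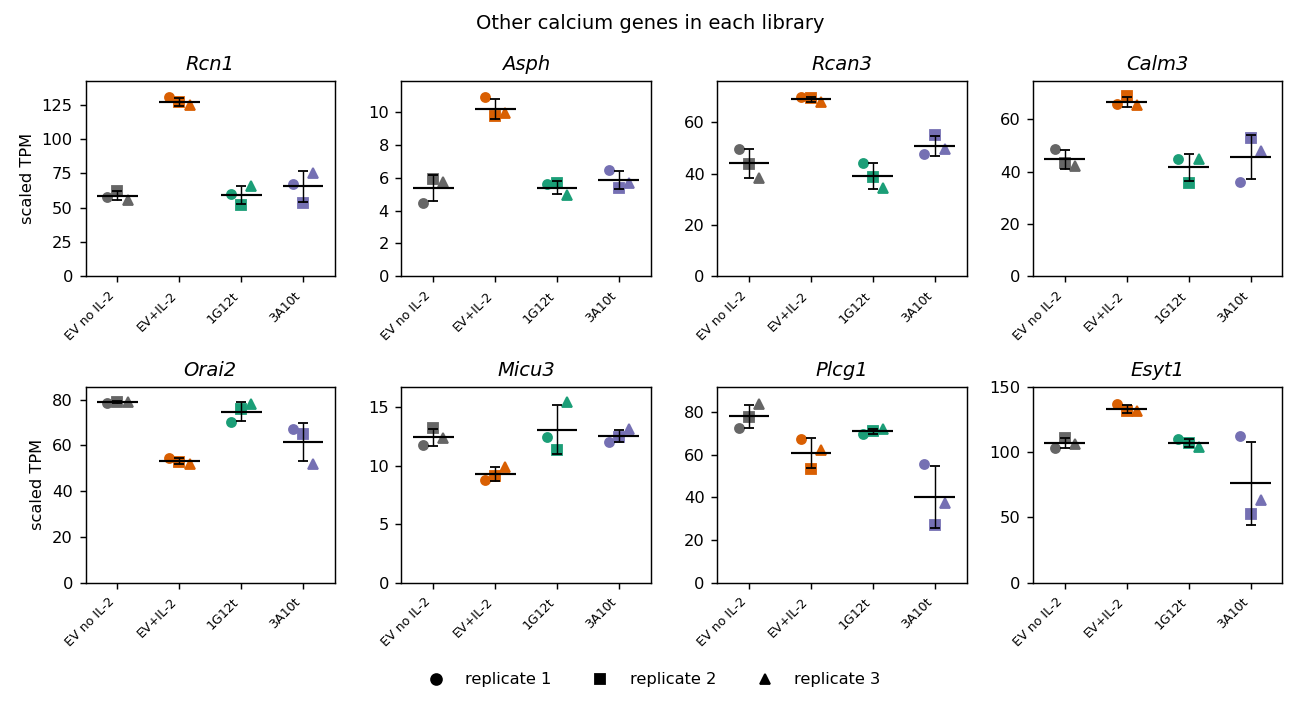
RNA level of 8 other calcium genes in each of the 12 libraries, in scaled TPM on linear axes from 0, with the symbols, long bars and error bars marking replicate number, group mean and SD of 3 libraries. Rcn1 lies between 125 and 130 in EV+IL-2 and between 52.4 and 75.6 in the other 9 libraries, and Plcg1 lies between 27.2 and 55.7 in 3A10t.

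The genes with the pattern most like that of Atp2a2 were ranked by Pearson r over the 12 libraries, among 8786 protein-coding genes with a mean of at least 5 TPM. The libraries share their groups, their parts of the pool and their transcript length trend, so r is given as a description. Gclc, which encodes a subunit of the enzyme for the first step of glutathione synthesis, had r = 0.98, Strn3 0.979, Tmem65 0.976 and Snx18 0.975, whereas the median over all genes was 0.134 and the 99% quantile 0.917. Gclc was at 20.6, 6.92 and 23.2 scaled TPM in 3A10t and at 52.6, 33.5 and 49.5 in EV+IL-2. As for Atp2a2, replicate 2 was the lowest of EV+IL-2, 1G12t and 3A10t in each of these 4 genes. They were picked by r over the same libraries, so this is no separate result. Among the set, Stim2 had r = 0.925, at rank 76, Stim1 0.868, at rank 281, Atp2a3 0.852, at rank 369, and Itpr3 0.757. Atp2b1 had r = −0.80, near the 5% quantile of −0.796.

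Among the 10 genes, r was high between the SERCA and STIM genes, and Itpr3 had r of 0.741 to 0.825 with them. Between Atp2a3 and Stim1 r was 0.961, between Atp2a3 and Stim2 0.951 and between Stim1 and Stim2 0.919. Atp2b1 was opposed to Stim2 (−0.913) and to Atp2a3 (−0.801). Itpr1 and Itpr2 had r = 0.843 with each other and −0.13 and −0.379 with Atp2a2. Atp2b4 and Orai1 had r of 0.198 and 0.359 with Atp2a2, and 0.016 with each other.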

How the data were processed

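RNA was sequenced from 12 libraries of sorted Thy1.1+ Tregs, 3 in each of 4 groups. The deposited table held TPM, which the authors made from reads aligned to the mouse genome (mm10, GRCm38). The submitters' processing notes name cutadapt 1.18, STAR 2.5.3, RSEM 1.3.0 and DESeq2 1.26. Each library sums to the same total, so depth and counts are unknown, and no interval for counting error was given. All 12 columns were matched to samples by name.

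TPM were divided by median-of-ratios size factors (0.854 to 1.093), and log2(scaled TPM + 1) of the 15043 genes with a mean of at least 1 TPM was fitted in limma 3.58.1 (R 4.3.3) over all 12 libraries, with moderated statistics, a trend of variance on mean level and two-sided p-values adjusted by Benjamini-Hochberg at 0.05. Fold changes on this scale understate the change of low genes. Intervals of 95% used 10.7 degrees of freedom. Transcript lengths came from GENCODE M21 and promoters from RefSeq. The trend on length was removed per library by lowess with a span of 0.3. The fit was tested on simulated data. Python 3.11.15 with scipy 1.17.1 and matplotlib 3.10.9 was used.

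The 10 genes and the pathway lists were chosen with earlier results of these data known. Named were the 10 genes, up to 4 higher and 4 lower genes of the lists per comparison (adjusted p under 0.05, a mean of at least 5 TPM, no overlap of groups) and the 5 genes most like Atp2a2, of which 1 is not reported here. The replicate number was taken to mark a shared sort, which would pair the libraries, but the study names no such block. Deviations from group means correlated by 0.0409 on average over 18 same-numbered pairs (−0.105 to 0.155) and by −0.0205 over 36 others. The fit without this block was the main fit, and 23 alternatives changed the pseudocount, filter, scaling, libraries, block, length correction and trend.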

Additional observations from a re-analysis of the deposited data

How the results depend on the processing

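Of 28 tested results of the 10 genes under 23 alternatives (644 values), 606 kept their direction and side of the threshold, 4 passed it newly and 34, all without a call, changed sign. The calls of Atp2b4 and Itpr1 held in all 23. In EV+IL-2 against 1G12t, 2 genes were called with the replicate block, with the length correction and with both, and 1 to 2 when a library was left out. The second gene was Itpr2 with the block (adjusted p = 0.0295) and Atp2b4 with the length correction (0.61, adjusted p = 0.0149) or both (adjusted p = 0.017). The block changed no other call of these genes. List genes called in 3A10t against EV no IL-2 numbered 0 without a filter and with the 6 libraries compared, 3 with TPM as deposited, 2 with the replicate block and 2 with length correction and block, and 0 to 24 with a library left out. In EV+IL-2 against EV no IL-2 they numbered 26 with the 6 libraries and 7 to 21 with a library left out, and in EV+IL-2 against 1G12t 15 at a mean of at least 5 TPM and 14 to 31 with a library left out. In 3A10t against 1G12t the 4 called became 0 without a filter, with the 6 libraries, with length correction and without a trend, 1 with quantile normalization and with length correction and block, 8 with the block, 9 at a mean of at least 5 TPM, 10 with TPM as deposited and 0 to 28 with a library left out. In 3A10t against EV+IL-2 the 29 became 7 with the 6 libraries, which also ended the calls of Kcnn4, Kcna3, Esyt1 and Ahcyl1 (adjusted p from 0.0556 to 0.106), and 15 to 38 with a library left out. Over all genes, the 308 calls of 3A10t against EV no IL-2 became 9 with the 6 libraries, 499 with TPM as deposited, 182 with quantile normalization, 113 with length correction, 181 with the block added, 186 without a trend and 25 to 3469 with a library left out. The 2001 calls of EV+IL-2 against EV no IL-2 became 3069 with the 6 libraries and 1232 to 2652 with a library left out, the 3099 of EV+IL-2 against 1G12t became 14842 without a filter, 1926 at a mean of at least 5 TPM and 2010 to 3791 with a library left out, and the 3 of 1G12t against EV no IL-2 ran from 2 to 14. The 642 of 3A10t against 1G12t ran from 12 (6 libraries) to 1396 (TPM as deposited), with 987 under the block, 197 with length correction and 47 to 4139 with a library left out, and the 3513 of 3A10t against EV+IL-2 from 1600 (6 libraries) to 15888 (no filter), and 1964 to 5051 with a library left out. The causes were not tested.

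Signs changed as follows in log2 differences that were never called. In EV+IL-2 against EV no IL-2, TPM as deposited and quantile normalization gave −0.0546 and −0.0713 for Atp2b1, −0.0462 and −0.0178 for Stim2 and −0.0382 and −0.0462 for Itpr3, and length correction, alone or with the block, gave 0.0088 for Stim1 and 0.0109 for Itpr2. With a library left out the values ran from −0.0901 to 0.0883 for Atp2b1, −0.0576 to 0.0192 for Stim1, −0.0285 to 0.0637 for Stim2, −0.153 to 0.152 for Itpr2 and −0.0672 to 0.116 for Itpr3. In 1G12t against EV no IL-2, Atp2a3 was at 0.0010 with quantile normalization and Atp2b1 at −0.0332 with length correction, alone or with the block. With a library left out Atp2b1 ran from −0.0197 to 0.158 and Stim1 from −0.0022 to 0.0648. In EV+IL-2 against 1G12t, Atp2b1 was at 0.0564 with length correction, alone or with the block, Atp2a2 ran from −0.0226 to 0.344 and Orai1 from −0.0819 to 0.0558 with a library left out.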
